A study of Mus musculus with 25 samples.

Results

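The suprabasal and stress keratins described here are 7 genes: Krt1 and Krt10, Krt6a, Krt6b and Krt16, and Krt13 and Krt4. They were chosen by name, 1 probe set per gene, from 19937 genes on 25 Affymetrix arrays, 1 sample each, of mouse mammary tissue. By their labels they comprise 10 K8 tumors, 10 Lgr5 tumors, 2 K8 glands and 3 Lgr5 glands. K8 tumors carried the genotype K8-creERT2/PIK3CA H1047R and K8 glands the genotype K8-creERT2 ctrl, both on a mixed FVB/CD1 background. Lgr5 tumors carried Lgr5-creERT2/PIK3CA H1047R and Lgr5 glands Lgr5-creERT2 ctrl, both on a mixed FVB/C57/BL6 background. Tamoxifen was injected at 7 to 8 weeks of age, and the same protocol text stands on the control arrays. It switches on the mutant PIK3CA, a catalytic subunit of PI3-kinase, through a Cre recombinase expressed in cells with keratin 8, a luminal keratin, or with the receptor Lgr5. Driver and strain background go together, so they cannot be told apart in any comparison between lines. No label says that each tumor came from its own animal, so the p-values below cover the spread among these samples alone, and part of it may be technical. Scanner files were not analysed here, and the number of arrays limits the precision.

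Keratins are the intermediate filament proteins of epithelia, and a filament needs a type II keratin paired with a type I keratin. In skin, cells that leave the basal layer replace the basal pair Krt5 and Krt14 with the suprabasal pair Krt1 and Krt10. Krt6a and Krt6b with their partner Krt16 are kept low between the hair follicles and are induced in wounds, in hyperproliferative epidermis and in squamous tumors, while Krt4 and Krt13 form the suprabasal pair of wet stratified linings such as the oesophagus and tongue. None of these pairs is typical of the resting mammary ducts, whose luminal cells carry Krt8 and Krt18 and whose basal cells carry Krt5 and Krt14.

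The type II genes Krt1, Krt6a, Krt6b and Krt4 lie in the keratin cluster on chromosome 15, and the type I genes Krt10, Krt16 and Krt13 in the cluster on chromosome 11. Promoter sequence was at hand for 2 of the 7 genes, in 3 windows taken from RefSeq on GRCm38.p6. They are shown because Krt10 and Krt13 share a chromosome and a keratin type, and their array values differed in range: Krt10 varied over 3.10 log2 units across arrays and Krt13 over 0.62. Each window holds the 250 bases before a transcription start, on the minus strand, 5′ to 3′. Capitals mark matches to 3 of the 4 motifs searched, the TATA box TATAAA on the gene's strand and, on both strands, the AP-1 motif TGANTCA and the C/EBP motif TTNNGCAA. The fourth, the AP-2 motif GCCNNNGGC, was searched on both strands and matched in none of the 3 windows. The windows lie at chr11:99389365-99389614 for Krt10, and at chr11:100121567-100121816 and chr11:100120578-100120827 for 2 starts of Krt13.
Krt10: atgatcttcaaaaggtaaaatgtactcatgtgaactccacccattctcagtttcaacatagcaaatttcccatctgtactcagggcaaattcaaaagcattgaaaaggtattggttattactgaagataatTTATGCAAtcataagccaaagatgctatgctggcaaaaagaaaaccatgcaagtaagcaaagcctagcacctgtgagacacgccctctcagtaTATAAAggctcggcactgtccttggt
Krt13, upstream start: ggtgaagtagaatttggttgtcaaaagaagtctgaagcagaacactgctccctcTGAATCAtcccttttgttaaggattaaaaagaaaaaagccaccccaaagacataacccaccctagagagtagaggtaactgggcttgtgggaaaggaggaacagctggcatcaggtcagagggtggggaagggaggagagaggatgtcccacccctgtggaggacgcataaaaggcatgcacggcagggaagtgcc
Krt13, downstream start: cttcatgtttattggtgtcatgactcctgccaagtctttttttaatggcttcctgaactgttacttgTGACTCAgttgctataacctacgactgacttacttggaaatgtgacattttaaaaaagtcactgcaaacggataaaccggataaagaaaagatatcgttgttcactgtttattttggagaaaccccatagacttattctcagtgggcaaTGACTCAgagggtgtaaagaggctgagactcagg
The Krt10 window held TATAAA 26 to 21 bases before the start and a C/EBP match 119 to 112 bases before it. In the Krt13 windows the only matches were AP-1 motifs, at 196 to 190 bases before the upstream start and at 183 to 177 and 34 to 28 bases before the downstream start. Among 32851 promoter windows of the same length, 7.59% held TATAAA, 6.75% the AP-1 motif, 9.56% the C/EBP motif and 13.7% the AP-2 motif. The matches describe letters in the windows, and no binding was measured.

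Tissue markers went against the tumor or gland label of several arrays, so groups are named by their labels and every direction is one between labelled sets. The mean of 12 adipocyte markers was 12.66 to 12.85 (log2) in Lgr5 tumors 2, 6, 7, 8 and 9, between 7.89 and 11.47 in the other 15 tumor arrays and between 7.62 and 9.92 in the 5 glands. Those 5 tumor arrays, called fat-rich below, also had the lowest mean of 9 cell cycle genes, at most 7.89, against at least 8.23 in the other tumor arrays and 9.47 to 10.00 in glands. Luminal Krt8 was measured in every array, at 11.25 or higher. Skeletal muscle markers averaged 9.49 to 10.47 in K8 tumor 7 and Lgr5 tumors 1, 4 and 10. In whole tissue RNA, fewer cells of a type and less RNA per cell cannot be told apart.

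The stress keratin Krt6b shows the pattern that most of the group followed. In K8 tumors its log2 value was 6.13 at the lowest, 6.37 at the median and 10.64 at the highest. In Lgr5 tumors the same values were 6.18, 6.33 and 12.08. The K8 glands gave 11.34 and 11.31, and the Lgr5 glands 11.29, 10.01 and 11.63. Every gland was high, whereas among tumors K8 tumor 9 (10.64) and Lgr5 tumor 10 (12.08) were in the range of the glands or near it, Lgr5 tumor 4 (7.90) and K8 tumor 7 (7.23) lay between, and the other 16 tumor arrays stayed at or below 6.55. All 10 K8 tumors lay below both K8 glands, and 9 of the 10 Lgr5 tumors lay below all Lgr5 glands. The glands are few, and the share of all genes separated in this way was not counted. Such separations, here and below, are descriptions only.

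**Figure D1:**
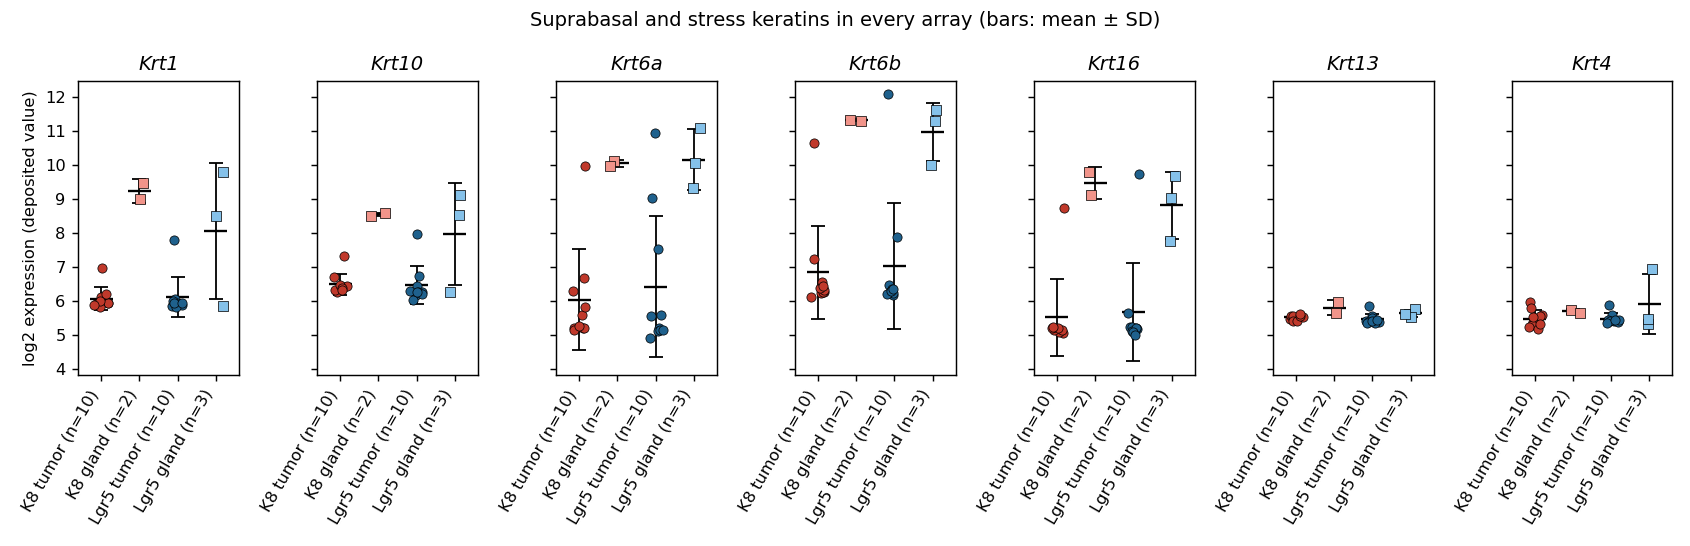
Deposited log2 expression of the 7 keratins, 1 panel per gene and 1 point per array, for K8 tumors, K8 glands, Lgr5 tumors and Lgr5 glands, with the mean ± SD of each group. Krt1, Krt10, Krt6a, Krt6b and Krt16 were high in most glands and in K8 tumor 9 and Lgr5 tumor 10, and Krt13 and Krt4 stayed between 5.19 and 6.94 in every array.

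Krt6a, the near-identical neighbour of Krt6b, ran from 5.14 through a median of 5.44 to 9.97 in K8 tumors and from 4.93 through 5.38 to 10.94 in Lgr5 tumors. The K8 glands had 10.13 and 9.99, and the Lgr5 glands 11.10, 9.33 and 10.05. Besides K8 tumor 9 (9.97) and Lgr5 tumor 10 (10.94), a further set of tumors stood above the rest for this gene: Lgr5 tumor 4 at 9.03, Lgr5 tumor 1 at 7.55, K8 tumor 7 at 6.69 and K8 tumor 6 at 6.30, against 4.93 to 5.82 in the other 14. Because the coding sequences of Krt6a and Krt6b are so alike, RNA of either gene may bind probes of the other, and the split between them is uncertain.

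Krt16, the type I partner of both, was 5.08, 5.18 and 8.74 in K8 tumors (lowest, median and highest) and 5.01, 5.23 and 9.74 in Lgr5 tumors. Its values were 9.13 and 9.80 in K8 glands and 9.69, 7.76 and 9.02 in Lgr5 glands. Krt16 separated the arrays most cleanly: 7 arrays, the 5 glands with K8 tumor 9 and Lgr5 tumor 10, were at 7.76 or above, and the other 18 were at 5.66 or below. Lgr5 tumor 4, the array that set Krt6a apart, had a Krt16 value of 5.66, and Lgr5 tumor 1 one of 5.25.

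Krt1, the type II keratin of the suprabasal epidermis, had 5.84, 5.94 and 6.98 in K8 tumors and 5.83, 5.95 and 7.79 in Lgr5 tumors. K8 glands had 9.49 and 8.99, and Lgr5 glands 8.50, 5.87 and 9.79. Lgr5 gland 2, at 5.87, was at the level of the low tumors although its stress keratins were high. The 2 highest tumors were again K8 tumor 9 and Lgr5 tumor 10, but for this gene both lay below the 4 high glands.

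Krt10, the partner of Krt1, followed it closely, with 6.28, 6.41 and 7.32 in K8 tumors and 6.04, 6.27 and 7.99 in Lgr5 tumors. In K8 glands it was 8.59 and 8.51, and in Lgr5 glands 8.52, 6.28 and 9.14. The low value again belonged to Lgr5 gland 2, which was exceeded or equalled by 4 of 10 Lgr5 tumors for Krt10 and by 8 of 10 for Krt1. In the K8 line no tumor reached a gland for either gene.

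The pair of wet linings behaved otherwise. Krt13 was 5.42, 5.53 and 5.62 in K8 tumors and 5.36, 5.43 and 5.87 in Lgr5 tumors, against 5.98 and 5.66 in K8 glands and 5.77, 5.54 and 5.62 in Lgr5 glands. Krt4 was 5.19, 5.46 and 5.97 in K8 tumors and 5.37, 5.44 and 5.89 in Lgr5 tumors, against 5.75 and 5.66 in K8 glands and 6.94, 5.34 and 5.49 in Lgr5 glands. Both stayed near the low end of the array's scale of 4.13 to 13.94, and a single value, Krt4 at 6.94 in Lgr5 gland 1, stood more than 1 unit above its gene's median.

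Between the highest and the lowest array, Krt6a varied over 6.18 log2 units, Krt6b over 5.95, Krt16 over 4.79, Krt1 over 3.96 and Krt10 over 3.10. Ranked by this range among 19937 genes they stood at 53, 65, 197, 449 and 916. Krt4, with 1.75, ranked 3139 and Krt13, with 0.62, ranked 10514.

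The arrays that held each keratin were nested. Counting arrays more than 1 log2 unit above the gene's own median over all 25, Krt6a had 10, Krt6b 8, Krt16 7, Krt1 6 and Krt10 5. Each smaller set lay wholly within each larger one, for instance all 5 arrays with raised Krt10 had raised Krt1, and all 7 with raised Krt16 had raised Krt6b. Going down this order, Krt6a alone was raised in K8 tumor 7 and Lgr5 tumor 1, Krt6a and Krt6b in Lgr5 tumor 4, these with Krt16 in Lgr5 gland 2, and these with Krt1 in K8 tumor 9, whose Krt10 of 7.32 fell just short of the line. With a step of 0.5 the counts were 11, 9, 7, 6 and 6, and with a step of 2 they were 8, 7, 7, 4 and 4. The step sets these counts and no test was attached to them.

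**Figure D2:**
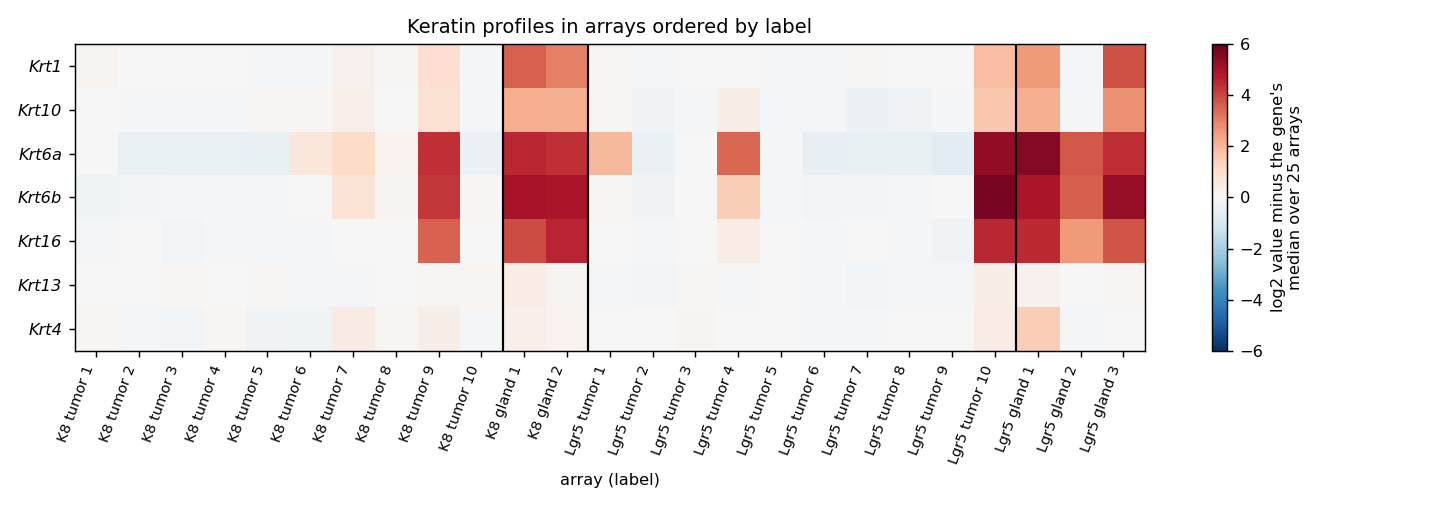
Log2 value of each keratin minus its median over the 25 arrays, in colour, with genes down the page and arrays across it in the order of their labels. The stress keratins are raised in all 5 glands, K8 tumor 9 and Lgr5 tumor 10, while Krt1 and Krt10 are at the median in Lgr5 gland 2 and only Krt6a and Krt6b are raised by more than 1 unit in Lgr5 tumor 4.

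Profiles were also compared by the root mean square difference of median-centred values over the 25 arrays, a distance on the log2 scale in which 0 means the same profile. Krt1 and Krt10 were 0.42 apart, Krt6b and Krt16 0.58, Krt6a and Krt6b 0.65, and Krt6a and Krt16 0.91. Krt1 was 1.04 from Krt16 and 1.65 from Krt6a. The suprabasal pair and the stress set therefore lay closer within themselves than to each other. The distance is not scaled, so it cannot tell a smaller swing from a different pattern. Krt10 was 0.84 from Krt4 and 0.90 from Krt13, which hardly varied, but 1.23 from Krt16. Krt13 and Krt4 were 0.30 apart, but profiles this flat are close by construction.

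**Figure D3:**
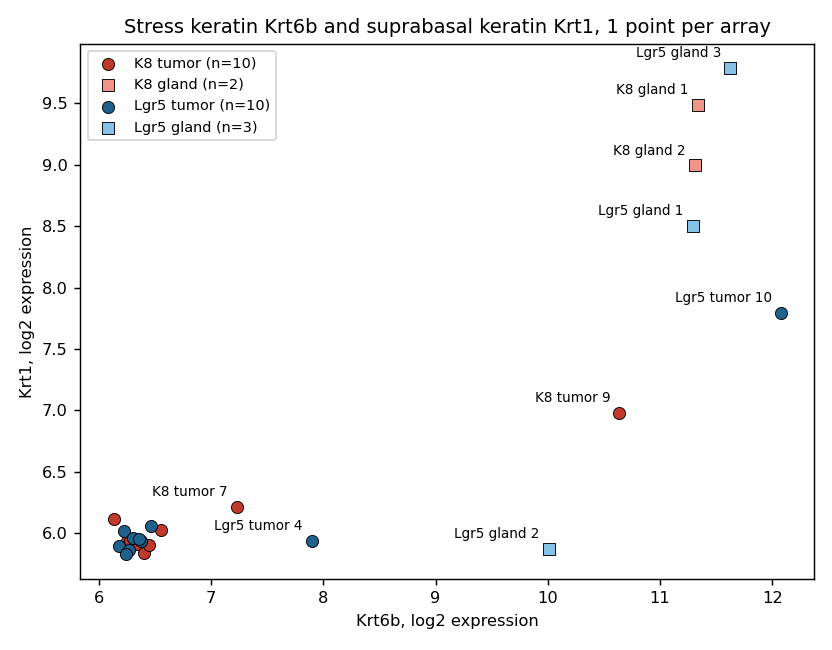
Log2 expression of Krt1 (vertical) against Krt6b (horizontal), 1 point per array, coloured by labelled group, with arrays above 7.1 for Krt6b named. Lgr5 gland 2 has a Krt6b of 10.01 with a Krt1 of 5.87, and K8 tumor 9 and Lgr5 tumor 10 lie between it and the 4 high glands for Krt1.

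The first comparison asked how Lgr5 tumors differed from Lgr5 glands. Krt1, Krt10, Krt6a, Krt6b and Krt16 were lower in arrays labelled Lgr5 tumor, 5 of the 7 keratins, where 10.6% of all genes were called lower and 15.9% called in either direction. Krt6b was lower by 3.94 ± 0.97 log2 units (SE, limma over all 25 arrays, adjusted p = 0.0144), a 15.3-fold difference of the means. Krt6a changed by -3.74 ± 1.08 (limma adjusted p = 0.0251) and Krt16 by -3.15 ± 0.79 (limma adjusted p = 0.0153). The suprabasal pair differed less in size, with -1.93 ± 0.49 for Krt1 (limma adjusted p = 0.0158) and -1.51 ± 0.40 for Krt10 (limma adjusted p = 0.0185). Krt13, at -0.17 ± 0.08, and Krt4, at -0.43 ± 0.21, did not pass (limma adjusted p = 0.159 and 0.17). The median difference over the 7 was -1.93, beside -0.01 over all genes.

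These calls rested on few glands. Without Lgr5 gland 1, or without Lgr5 gland 3, none of the 7 passed, with 252 and 705 genes called in all, while without Lgr5 gland 2 they numbered 6, with 1976 genes called in all. The Krt4 difference came from Lgr5 gland 1, without which it was 0.08.

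The tumor arrays whose markers went against their labels moved these results as well. Without K8 tumor 9 and Lgr5 tumor 10 the Krt6b difference was -4.50, but these are the highest tumors for most of the keratins themselves, so a larger difference follows from leaving them out and no test is attached to it. Leaving out the fat-rich Lgr5 tumors 2, 6, 7, 8 and 9, none of the 7 passed by limma and 1 gene in all did, while the differences kept their sign, -1.73 for Krt1 and -3.16 ± 1.14 for Krt6b (limma adjusted p = 0.152 and 0.165).

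In the K8 line the same 5 keratins were lower in tumors than in glands, where 5.69% of all genes were called lower, 3.42% higher and 9.1% in either direction. Krt1 differed by -3.16 ± 0.57 log2 units (limma adjusted p = 0.00821), an 8.96-fold difference, and Krt10 by -2.05 ± 0.47 (limma adjusted p = 0.0168). For the stress keratins the differences were -4.47 ± 1.14 for Krt6b (limma adjusted p = 0.0227), -3.94 ± 0.93 for Krt16 (limma adjusted p = 0.0172) and -4.02 ± 1.27 for Krt6a (limma adjusted p = 0.0489). Krt13 missed the threshold at -0.29 ± 0.09 (limma adjusted p = 0.0536), and Krt4 differed by -0.21 ± 0.25 (limma adjusted p = 0.692).

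Only 2 arrays stand for K8 glands, and leaving out either one ended all 5 calls, with 30 genes called in all without K8 gland 1 and 75 without K8 gland 2. The Krt6a call was the least firm: it was lost under quantile normalization (limma adjusted p = 0.0517) and in most fits without 1 array. Krt13 passed in 12 alternative settings, among them median centring (limma adjusted p = 0.034), array weights (0.00145) and a fit of only the K8 groups (0.0289). Without K8 tumor 9, the highest K8 tumor for the 5 keratins, and Lgr5 tumor 10, the Krt6b difference was -4.89, given with no test for the same reason as above.

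**Figure D4:**
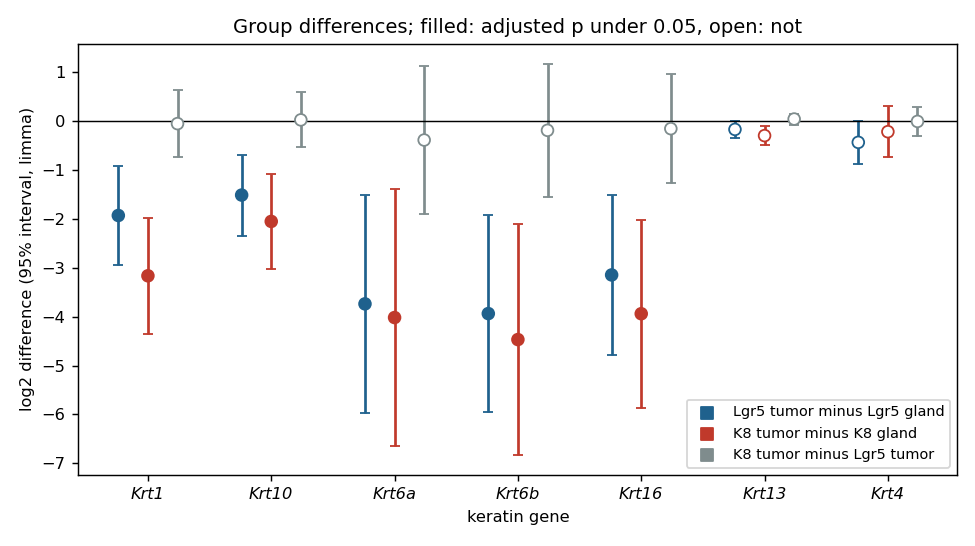
Log2 difference of each keratin with its 95% interval from limma, for Lgr5 tumor minus Lgr5 gland, K8 tumor minus K8 gland and K8 tumor minus Lgr5 tumor, filled where the adjusted p was under 0.05. The first 5 genes lie between -4.47 and -1.51 in both tumor-gland comparisons, and all 7 lie between -0.38 and 0.05 between tumors.

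Tumors of both lines were also set against each other. None of the 7 keratins differed between K8 tumors and Lgr5 tumors by limma, 0 of 7 also at an unadjusted p under 0.05, where 21.3% of all genes were called. Differences ran from -0.38 ± 0.73 for Krt6a to 0.05 ± 0.05 for Krt13, with adjusted p of 0.587 or more. The 95% interval for Krt6a, from -1.90 to 1.13, leaves room for a difference of either sign, whereas that for Krt10 ran from -0.53 to 0.59. Without the fat-rich Lgr5 tumors 2, 6, 7, 8 and 9 the Krt6a difference was -1.69 ± 0.85, and without the muscle-bearing arrays, an alternative chosen after seeing the data, it was 0.72, neither called (limma adjusted p = 0.614 and 0.335).

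No difference between lines was called in the spread among tumors. The SD of Krt6a was 1.48 in K8 tumors and 2.07 in Lgr5 tumors, and that of Krt1 was 0.34 and 0.59 (n = 10 each). For no keratin was a difference in SD called (two-sided permutation test with 100000 resamples, 7 tests, adjusted p = 0.64 for each). K8 tumor 9 and Lgr5 tumor 10 largely set most of these SDs, so the test cannot show that the spreads were alike. Without K8 tumor 9 and Lgr5 tumor 10 the SD of Krt1 was 0.12 in K8 tumors and 0.07 in Lgr5 tumors, that of Krt16 was 0.05 and 0.18, and that of Krt6a 0.56 and 1.41. For Krt4 it was 0.24 and 0.07. Since these 2 arrays were left out for standing apart, and Lgr5 tumor 10 was the highest Lgr5 tumor for Krt4, the smaller SDs are a description only.

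Control glands of the 2 lines were compared by the same fit. The mean of Krt1 was 6.08 in K8 tumors and 6.12 in Lgr5 tumors, and 9.24 in K8 glands and 8.05 in Lgr5 glands, an order in which neither the tumors nor the glands differed between lines by the test. For none of the 7 did K8 glands differ from Lgr5 glands by limma, and 0% of all genes were called, with 319 of 19937 genes and 0 of the 7 at an unadjusted p under 0.05. The Krt1 difference was 1.19 ± 0.68, with a 95% interval from -0.21 to 2.59, and that of Krt6a was -0.10 ± 1.49. Intervals this wide come with 2 glands against 3.

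Whether the tumor-gland difference itself differed between lines was tested as the K8 difference minus the Lgr5 difference. It was not called for any of the 7 (limma adjusted p from 0.781 to 0.974), 0% of all genes were called, and 883 genes and 0 of the 7 had an unadjusted p under 0.05. For Krt1 it was -1.23 ± 0.75 and for Krt16 -0.79 ± 1.22.

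Partner keratins were then set against each other within an array, as the type II minus the type I log2 value, which removes what both share. Offsets between probe sets cancel only when these values are compared between groups. Even then they may not cancel where a group lies near the low end of the scale. In K8 tumors the median was 5.94 for Krt1 and 6.41 for Krt10. Krt1 minus Krt10 was -0.42 ± 0.10 in K8 tumors (SD, n = 10) and 0.69 ± 0.30 in K8 glands (SD, n = 2), so Krt1 differed more than Krt10 by 1.11 units, in an exact two-sided permutation test with p = 0.0303, the smallest that 10 against 2 arrays can give, and adjusted p = 0.252 over 12 tests. Krt6b minus Krt16 was 1.36 ± 0.50 in Lgr5 tumors (SD, n = 10) and 2.15 ± 0.51 in Lgr5 glands (SD, n = 3), with p = 0.042 and adjusted p = 0.252 by the exact permutation test. None of the 12 tests passed after adjustment. By this permutation test the smallest possible p was 0.0303 in the K8 tumor-gland tests and 0.00699 in the Lgr5 ones. Over 12 tests, a single result at either value could not pass on its own. The tumor-gland tests therefore cannot show that partners differed by the same amount. Krt6a minus Krt16 was the most variable among tumors, with an SD of 1.19 in Lgr5 tumors, where Lgr5 tumors 1 and 4 had raised Krt6a without raised Krt16.

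Among the keratin family as a whole, 52 genes were measured. In Lgr5 tumors against Lgr5 glands 7 of the 52 were called lower, the 5 described and Krt14 and Krt79, and 0 higher. Beside this, 10.6% of all genes were called lower. Of the 45 keratins outside the 7 described, only Krt14 and Krt79 were called, so the count shows no decrease of the family as a whole. In K8 tumors against K8 glands 14 were called lower and 0 higher, where 5.69% of all genes were called lower. The same shares stand beside the counts of genes called lower in every list below. Krt79, a keratin of the sebaceous and upper follicle epithelium, differed by -3.47 ± 1.17 in the Lgr5 line and -4.56 ± 1.37 in the K8 line (limma adjusted p = 0.0462 and 0.0408). Of the other keratins of stratified epithelia, 2 of 16 were lower in the Lgr5 line and 3 of 16 in the K8 line. Basal Krt14 differed by -1.98 ± 0.66 (limma adjusted p = 0.0445) in the Lgr5 line but not in the K8 line (-0.90 ± 0.77, limma adjusted p = 0.543), and Krt80, a type II keratin of maturing epithelium, by -2.09 ± 0.64 in the K8 line (limma adjusted p = 0.0441). Of 5 simple epithelial keratins 0 were called by limma in either line, and luminal Krt8 differed by -0.72 ± 0.31 and 0.06 ± 0.37.

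**Figure D5:**
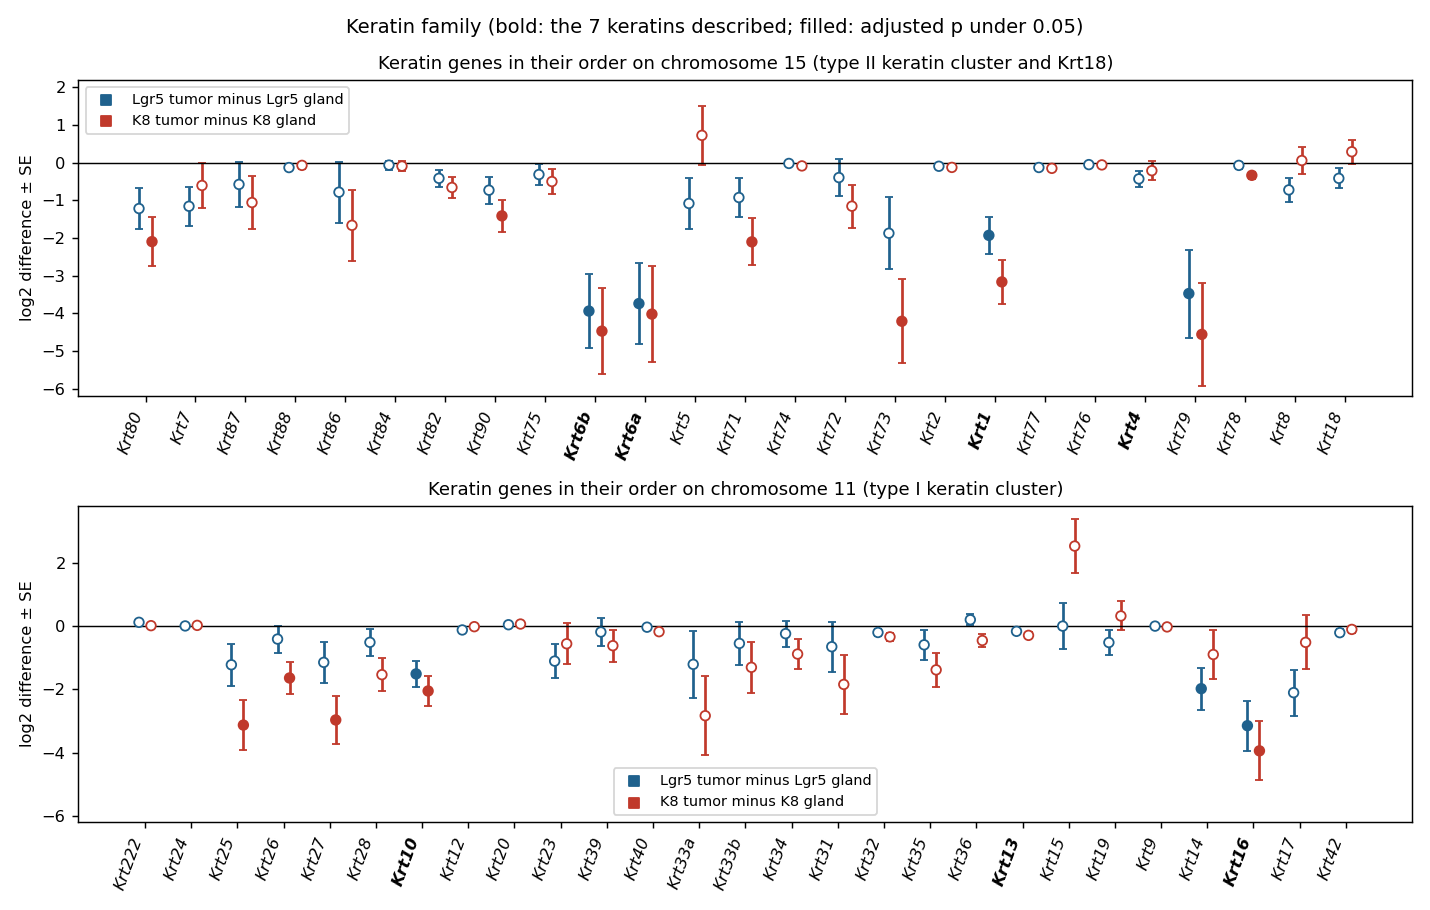
Log2 difference ± SE of keratin genes in their order along the clusters of chromosome 15 (top) and chromosome 11 (bottom), for Lgr5 tumor minus Lgr5 gland and K8 tumor minus K8 gland, filled where the adjusted p was under 0.05, with the 7 keratins in bold. Krt6b and Krt6a lie next to Krt5 and Krt75, which did not pass in either line, and Krt13 and Krt4 lie near 0.

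Keratins of the hair shaft and inner root sheath, the sleeve that guides the growing hair, moved in some of the same arrays. Of 21 measured, 0 were called in the Lgr5 line by limma and 5 were lower in the K8 line, with Krt25 at -3.13 ± 0.79 and Krt73 at -4.21 ± 1.12 (limma adjusted p = 0.0214 and 0.0257). Krt25 was 6.83 in K8 tumor 9 and 8.65 in Lgr5 tumor 10, and it was 8.37 and 9.39 in K8 glands and 5.74, 5.59 and 10.08 in Lgr5 glands 1, 2 and 3. Lgr5 gland 1 thus had high Krt1, Krt10 and stress keratins (8.50 for Krt1) with a low Krt25. Not every such gene was low there. Krt73 was 7.22 in Lgr5 gland 1, against 5.78 and 11.23 in Lgr5 glands 2 and 3. Tchh, a marker of skin appendages, was 9.09, against 5.69 and 10.56. The mean over the hair keratins was 5.80 to 6.62 in K8 tumors, 5.74 to 8.44 in Lgr5 tumors, 6.68 to 8.04 in K8 glands and 5.81 to 8.17 in Lgr5 glands. A further fit left out Lgr5 gland 3, Lgr5 tumor 10 and K8 gland 2, a choice made after seeing the data. In the Lgr5 line its differences were -1.25 for Krt1 and -4.17 for Krt6b. Lgr5 tumor 10 was the highest Lgr5 tumor for each of the 7 keratins, so leaving it out favours a larger difference, and no test is attached. The fit left a single K8 gland, K8 gland 1, which had hair keratins itself, with Krt25 at 8.37 and Krt73 at 9.64. K8 tumor 9, with Krt73 at 8.78, also stayed in. In the K8 line the fit therefore does not show the keratins without hair keratin arrays. The differences there were -3.41 for Krt1 and -4.48 for Krt6b.

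Markers of epidermis and skin appendages form a list that includes follicle genes. Of 14 measured, 3 were lower in Lgr5 tumors and 6 in K8 tumors, and 0 higher in either. Casp14, a protease of the cornifying epidermis, differed by -1.65 ± 0.50 and -2.04 ± 0.59 (limma adjusted p = 0.0318 and 0.0349), and it was 7.23 and 8.06 in K8 glands and 8.82, 5.69 and 7.06 in Lgr5 glands. The cornified envelope protein loricrin (Lor), in contrast, was at 5.21 to 5.68 in all 25 arrays, and Krt2, a keratin of the upper epidermis, at 5.24 to 5.52, both singled out after their values were seen. The mean over the 14 was 5.71 to 6.98 in K8 tumors, 5.75 to 7.40 in Lgr5 tumors, 7.21 to 7.62 in K8 glands and 6.09 to 7.70 in Lgr5 glands. Markers of melanocytes averaged 5.86 to 6.20 in every array.

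The cornified envelope, the cross-linked shell that keratinocytes build as they die, moved with the keratins. Of 26 measured genes 16 were lower in Lgr5 tumors and 17 in K8 tumors, and 0 higher in either, with median differences of -2.002 and -2.78. The small proline-rich envelope gene Sprr1b differed by -3.58 ± 0.68 in the Lgr5 line and -4.01 ± 0.80 in the K8 line (limma adjusted p = 0.00678 and 0.012), and Sprr2b by -1.96 ± 0.39 and -2.96 ± 0.46 (limma adjusted p = 0.00843 and 0.00432). Sprr1b was 9.67 in Lgr5 gland 2, close to the 9.70 and 10.15 of the other Lgr5 glands, whereas Sprr2b was 4.76 there, against 7.72 and 8.09. The late envelope gene Lce3a likewise had 5.43 in Lgr5 gland 2, against 6.36 and 7.33. Lgr5 gland 2 thus had Sprr1b near the level of the other Lgr5 glands and raised stress keratins, each the lowest of the 5 glands, while its Krt1, Krt10, Sprr2b and Lce3a were near the level of the low tumors.

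Lgr5 tumor 4 showed a further combination, named here after its values were seen. Involucrin (Ivl), an envelope precursor, was 8.62 in that array, against 5.49 to 6.38 in the other tumors apart from K8 tumor 9 and Lgr5 tumor 10, and Krtdap, a secreted keratinocyte differentiation protein, was 9.77. Krt6a was 9.03 in this array while Krt16 was 5.66 and Krt1 was 5.94. The combination was not particular to this array. K8 tumor 6 had a weaker form of it, with Krtdap at 7.71, Ivl at 6.38 and Krt6a at 6.30. Its Krt16 was 5.16 and its Krt1 was 5.84.

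Of the desmosome genes, whose products anchor keratin filaments at cell contacts, 6 of 11 were lower in Lgr5 tumors and 3 of 11 in K8 tumors. Dsc2, a desmosomal cadherin, differed by -2.33 ± 0.58 and -2.34 ± 0.68 (limma adjusted p = 0.0146 and 0.035), and Dsg1b, the cadherin of upper epidermal layers, by -1.32 ± 0.41 and -1.88 ± 0.48 (limma adjusted p = 0.0326 and 0.0219). Jup, plakoglobin, passed in the Lgr5 line at -0.67 ± 0.17 (limma adjusted p = 0.0175) and had -0.38 ± 0.20 in the K8 line (limma adjusted p = 0.263). The difference between lines was not called for Jup or for any other gene.

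Among 23 transcriptional regulators of keratinocytes, 8 were lower and 2 higher in Lgr5 tumors, where 5.28% of all genes were called higher, and 3 were lower in K8 tumors. Grhl3, a factor of the epidermal barrier, differed by -1.87 ± 0.50 in the Lgr5 line and -2.32 ± 0.59 in the K8 line (limma adjusted p = 0.0195 and 0.0228). Cebpb, whose family drives Krt1 and Krt10 in keratinocytes, differed by -0.92 ± 0.20 in the Lgr5 line (limma adjusted p = 0.00977) and -0.51 ± 0.23 in the K8 line (limma adjusted p = 0.176). Maf was higher in Lgr5 tumors by 0.95 ± 0.25 (limma adjusted p = 0.0177), and the other gene called higher was Cebpa, which is also strongly expressed in fat, at 1.61 ± 0.50 (limma adjusted p = 0.0343). Adipocyte markers were higher in the same comparison, 11 of 12. With their mean in the fit, none of the 7 keratins and no gene at all was called in the Lgr5 line, at -2.08 for Krt1 and -3.25 for Krt6b (limma adjusted p = 0.28 and 0.298), against -1.93 and -3.94 without it. In the K8 line, where 0 of 12 adipocyte markers were called by limma, the same covariate ended no keratin call.

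Growth factors, alarmins and defensins that stressed keratinocytes release were lower in tumors, 12 of 19 in the Lgr5 line and 13 of 19 in the K8 line. Tgfa, a ligand of the EGF receptor, differed by -1.37 ± 0.25 and -1.21 ± 0.29 (limma adjusted p = 0.00575 and 0.0182), and Hbegf, another such ligand, by -1.98 ± 0.39 and -1.93 ± 0.45 (limma adjusted p = 0.00733 and 0.0172). The cytokine gene Il1a differed by -2.89 ± 0.69 and -3.13 ± 0.81 (limma adjusted p = 0.0128 and 0.0236). Defb3, an epithelial defensin, differed by -2.08 ± 0.58 and -3.50 ± 0.68 (limma adjusted p = 0.0214 and 0.0103), and like Krt1 it was low in Lgr5 gland 2, at 5.29, against 8.55 and 8.70 in Lgr5 glands 1 and 3. Neutrophil markers, a list that shares S100a8 and S100a9 with this one, were lower too, 5 of 10 in the Lgr5 line and 3 of 10 in the K8 line. The mean of the neutrophil list was 5.70 to 7.49 in K8 tumors, 5.75 to 8.31 in Lgr5 tumors, 7.36 to 8.00 in K8 glands and 6.66 to 8.56 in Lgr5 glands, and its part in the keratin results was not tested.

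Fibroblast and endothelial markers were higher in tumors. Of 8 fibroblast markers 7 were higher in Lgr5 tumors and 5 in K8 tumors, and of 8 endothelial markers 7 and 2 were. The mean of the fibroblast list was 9.82 to 11.58 in K8 tumors and 10.19 to 11.75 in Lgr5 tumors, against 9.20 to 9.65 in K8 glands and 9.73 to 10.27 in Lgr5 glands. The endothelial mean was 7.89 to 9.71 in K8 tumors and 8.62 to 9.94 in Lgr5 tumors, against 7.75 to 8.16 in K8 glands and 8.29 to 8.40 in Lgr5 glands. Of 10 basal and myoepithelial markers 5 were higher in K8 tumors and 2 lower in Lgr5 tumors, and of 12 luminal markers 3 were higher in K8 tumors, while 4 were lower and 1 higher in Lgr5 tumors. Of 9 cell cycle genes 7 were lower in Lgr5 tumors and 0 were called in K8 tumors by limma. With the mean of Epcam, Cdh1, Krt8 and Krt18, epithelial markers, in the fit none of the 7 keratins was called in the Lgr5 line, at -1.70 for Krt1 and -3.15 for Krt6b (limma adjusted p = 0.114 and 0.122). The part of the fibroblast, endothelial and cell cycle genes in the keratin results was not tested.

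The same profile distance was used to rank genes outside the group, leaving out predicted and clone-named genes such as those with Gm, Rik or LOC symbols. Among the genes ranked, the closest to the mean of the 7 keratins over the 25 arrays was Slc16a3, at 0.28. It was followed by Bpifc, Calm4, Tnfrsf23, Grhl3, Slc7a11, Lce1c, Samd12, Acod1 and Clec4d, at up to 0.35. Closest to Krt1 were Sprr2b, Lce1e and Defb3, and closest to Krt10 were Lce1j, Dsg1b and Lce3e. Krt6a was nearest to Dmkn, Klk10 and Dynap, Krt6b to Dynap, Dmkn and S100a8, and Krt16 to Il1f9, Cnfn and S100a8. The suprabasal pair and the stress set shared none of their 3 nearest genes. Neither did Krt1 and Krt10, nor Krt6a and Krt16, so lists this short do not set the pair apart from the stress set. For the flat profiles of Krt13 and Krt4, whose nearest genes were Zfp850 and Uox, nearness has little content.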

How the data were processed

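Total RNA of cryo-homogenized tissue was amplified from 100 ng of input and labelled with biotin for Affymetrix arrays, as the labels' protocols state. The authors deposited 34760 probe sets by 25 arrays, taken as log2 values because they run from 4.13 to 13.94; no label gives the base. The package affy stands in the submitters' processing notes. Background correction, normalization, summarization and genome build: not given in the sources used here. Array medians lay between 6.34 and 6.43.

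Gene symbols came from the annotation of the platform (21640 with 1 symbol, 1321 with several, 11799 unlisted), of which 21553 matched RefSeq gene identifiers, changing 0 symbols. The brightest was kept for 954 symbols with several, giving 19937 genes, and each of the 7 keratins had 1 probe set. Groups follow the titles, and no array was moved. Il36a, Il36b and Il36g were found under the older symbols Il1f6, Il1f8 and Il1f9.

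Genes were tested with limma 3.58.1 (R 4.3.3), fitting 4 group means to the 25 arrays with default eBayes moderation. P-values were adjusted by Benjamini-Hochberg over all genes, with a threshold of 0.05. Partner differences and tumor spread were tested by permutation (scipy 1.17.1). Errors beside differences are SEs. In simulations among 19937 genes, changes of 1 and 2 log2 units were recovered in 86% and 96% for the Lgr5 tumor-gland comparison and 81% and 91% for the K8 one, with 6 and 10 false calls, on noise independent between genes. This recovery need not hold for the stress keratins, whose SEs were large. In the K8 line Krt6a, at -4.02 ± 1.27, only just passed (limma adjusted p = 0.0489).

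The keratins, gene lists, tests and alternative settings were chosen with earlier results of these data known. Of 237 listed genes 223 were measured. All 7 keratins are named, together with the genes of nearest profile. For each other list a rule picked the up to 4 genes with the smallest adjusted p in either tumor-gland comparison. Only some of the genes so picked are named, and no fixed rule set which. Other genes (Lor, Krt2, Ivl, Krtdap, Cebpa) were chosen after their values were seen. Alternatives covered normalization, array weights, moderation, a replicate block, a filter on dim probe sets, covariates and left-out arrays.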

Additional observations from a re-analysis of the deposited data

Results flagged for a closer look

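Within each group of 10 tumors, 1 array stood far above the other 9 for most of the keratins, by the gap to its neighbour relative to the whole range (Dixon's 95% critical value for 10 samples). Chance flags about 1 in 20 single groups. The 11 outliers among 14 sets of values come from the same 2 arrays and from genes that vary together, so they are not independent of each other. In K8 tumors the array was K8 tumor 9, with log2 values of 6.98 for Krt1, 7.32 for Krt10, 9.97 for Krt6a, 10.64 for Krt6b and 8.74 for Krt16. In Lgr5 tumors it was Lgr5 tumor 10, with 7.79 for Krt1, 7.99 for Krt10, 12.08 for Krt6b, 9.74 for Krt16, 5.87 for Krt13 and 5.89 for Krt4. Krt6a in Lgr5 tumor 10, at 10.94, was not an outlier because Lgr5 tumor 4 stood at 9.03. These are the same 2 tumor arrays whose cornified envelope genes averaged 8.47 and 8.48, against 5.83 to 6.96 in the other tumors, and whose results are given with and without them in the report.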

How the results depend on the processing

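The number of keratins called lower in Lgr5 tumors, 5 of 7, fell to 0 when the fit held only the groups compared, to 1 among genes above the median level (where the dimmer keratins were not tested), to 0 with the adipocyte mean as a covariate, to 0 with the epithelial mean as a covariate and to 0 without Lgr5 tumors 2, 6, 7, 8 and 9. In these last 3 fits the differences stayed below 0, at -2.08, -1.70 and -1.73 for Krt1 (main value -1.93) and -3.25, -3.15 and -3.16 for Krt6b (-3.94). Leaving out 1 array at a time it ran from 0, without Lgr5 gland 1 or 3, to 6. In K8 tumors it was 1 among genes above the median level and ran from 0, without K8 gland 1 or 2, to 6, Krt13 being gained in 12 settings there and in 5 in the Lgr5 line. Counts in the other 3 comparisons and of partner differences stayed at 0 under every alternative that could be run, and without a K8 gland the partner tests could not be run. Of the settings that gained Krt13 in the Lgr5 line, all but array weights left out Lgr5 tumor 10, the highest Lgr5 tumor for Krt13. For the tumor-gland partner tests, the few glands largely set the count of 0 beforehand. The count of spread tests passed was 1 without K8 tumor 9 and Lgr5 tumor 10, against 0, but leaving out arrays that stood apart made that spread smaller. Counts of all genes moved more: 3168 in the Lgr5 comparison became 7815 with array weights, 690 when only its own groups were fitted, 1737 with a replicate block, 5969 without the muscle-bearing arrays (chosen after seeing the data), 5387 without K8 tumor 9 and Lgr5 tumor 10, 96 with the epithelial covariate, and 0 or 1 with the adipocyte covariate or without the fat-rich arrays. The 1815 in the K8 comparison became 6341 with array weights, and the 4246 between tumors ran from 0 to 7997. Fits that left a single K8 gland gave far fewer in the K8 comparison. Among them was the fit without Lgr5 gland 3, Lgr5 tumor 10 and K8 gland 2 (chosen after seeing the data). The replicate numbers did not pair the samples: deviations of same-numbered tumors correlated above 0.1 in 4 of 10 pairs (from -0.147 to 0.513). With the replicate block 4 of 7 keratins were called in the Lgr5 comparison, Krt6a being lost (-4.24, limma adjusted p = 0.0561), and in the K8 comparison Krt6a was lost (-4.40, limma adjusted p = 0.0922) and Krt13 gained (-0.33, limma adjusted p = 0.0346). Signs turned only for differences that were not called. For Lgr5 tumor minus gland these were Krt13 (0.00056, adipocyte covariate) and Krt4 (0.080 without Lgr5 gland 1, the other fits without 1 array reaching down to -0.72). For K8 minus Lgr5 tumors they were Krt13 (-0.10, adipocyte covariate; -0.036, epithelial covariate; -0.031, without the fat-rich arrays), Krt10 (-0.25, without the fat-rich arrays), and Krt6a (0.72), Krt6b (0.53) and Krt16 (0.40) without the muscle-bearing arrays. Between glands they were Krt10 (-0.031 with array weights, and -0.28 without Lgr5 gland 2 to 1.15 without Lgr5 gland 3) and Krt4 (0.29 without Lgr5 gland 1 to -0.51 without Lgr5 gland 2), and for the difference of the comparisons Krt10 (0.088 with array weights, and 0.31 without Lgr5 gland 2 to -1.12 without Lgr5 gland 3), Krt13 (0.032 without K8 gland 1) and Krt4 (-0.29 without Lgr5 gland 1 to 0.51 without Lgr5 gland 2). A turn smaller than its own SE in an uncalled value was not counted. Apart from the changes that follow from fewer genes or arrays in the fit, the cause was not tested. Values near the low end of the scale, as for Krt13 and Krt4, may understate differences. Called keratins were low in most tumors too. Medians in K8 and Lgr5 tumors were 5.18 and 5.23 for Krt16, 5.44 and 5.38 for Krt6a, and 5.94 and 5.95 for Krt1. The sizes of their differences, and the order of these sizes among keratins, may be limited in the same way.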
